A study of Mus musculus with 2 samples.

Results

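Usp39 peaks in distal intergenic sequence are the peaks of the deposited RNA immunoprecipitation list whose location class is Distal Intergenic, and there were 3142 of them beside 32838 peaks of other classes. They made up 8.73% of the list (95% Wilson interval 8.45 to 9.03%). The class is that of the annotation used by the authors, and stands for peaks that no transcript model, promoter or short stretch after a gene claims. It still held peaks beside gene starts, the nearest 0.006 kb from the named start. The peaks came from AML12 cells, a mouse hepatocyte line grown with dexamethasone, that carried a doxycycline-induced FLAG-Usp39 vector. The vector was induced for 72 h in both groups, followed by 5 min of fixation in paraformaldehyde (of cells by the labels, of isolated nuclei by the methods). Nuclear RNA held on anti-FLAG magnetic beads made the IP library, and the Input library had no antibody. Each group had 1 library. The files hold 1 pooled list with no read counts, so no peak could be set against Input, the depth is unknown, and no test between groups was possible. The line over-expresses a tagged protein, and no library of cells without the tag was analysed here.

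Usp39 belongs to the tri-snRNP, a complex of small nuclear RNAs and proteins that joins the spliceosome before splicing starts, and RNA immunoprecipitation with sequencing (RIP-seq) recovers the RNAs that stay with a tagged protein. Sequence between genes also gives rise to RNA. Long noncoding RNAs, transcripts that run past a polyadenylation site, and copies of mobile elements or of short RNA genes are all found there, and for the last of these a sequenced read can often be placed at more than 1 position. How many times the sequence of a peak stands in the genome is thus part of what a distal peak is.

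The list ran over the chromosomes in 2 passes of 17990 peaks each, of which the first held 1565 and the second 1577 distal peaks. No source used here says what a pass is (a replicate, a strand or a repeat run), so the passes were not treated as replicates. The study's reporting summary speaks of independent experiments for RIP-seq, but nothing links a pass to an experiment. Intervals below cover counting error only, take peaks as independent and are too narrow, because both passes hold many of the same sites. Of 11 hepatocyte markers, only Krt8 and Krt18 had a peak of any class named for them, and Alb, Ttr, Apoa1 and Hnf4a had none. No fibroblast marker (of 5) and no endothelial marker (of 3) had one, and 1 of 4 macrophage markers (Cd68) and 2 of 4 cholangiocyte markers (Krt7 and Krt19) did. A missing peak is not a measure of expression.

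The distal peaks were of 2 kinds, and the following sequences, from GRCm38 (mm10), plus strand, 5′ to 3′, show both. The first 5 are the strongest peaks, at most 200 bases wide, in 5 clusters made mostly of sequence that occurs once in the genome. Capitals in them mark GGCCAC or GCCATA, hexamers taken from the study's own motif search of these data, on either strand.
Beyond Gm5420, chr10:21763401-21763500: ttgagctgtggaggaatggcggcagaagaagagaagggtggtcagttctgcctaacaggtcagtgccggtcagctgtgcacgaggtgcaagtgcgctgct
Between Lgalsl and Peli1, chr11:20956301-20956400: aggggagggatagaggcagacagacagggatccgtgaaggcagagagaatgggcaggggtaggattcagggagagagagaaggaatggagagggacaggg
Before Pax2, chr19:44738901-44739000: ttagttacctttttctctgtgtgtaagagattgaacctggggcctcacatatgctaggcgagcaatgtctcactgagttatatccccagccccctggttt
After the end of H6pd, chr4:149979101-149979200: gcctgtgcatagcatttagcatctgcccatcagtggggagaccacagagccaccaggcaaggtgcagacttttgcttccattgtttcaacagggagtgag
After the end of Neat1, chr19:5824501-5824600: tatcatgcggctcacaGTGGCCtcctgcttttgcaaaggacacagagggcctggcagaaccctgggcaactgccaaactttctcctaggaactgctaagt
Only the Neat1 peak held one of the hexamers, as GTGGCC, the reverse complement of GGCCAC. The p-values of these peaks, as given by the peak caller, ran from 9.76e-15 (Lgalsl and Peli1) to 5.88e-08 (Neat1).

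The next 5 sequences occur several times in the genome. In the first pair, from an array on chromosome 6, capitals mark the stretch identical to the RefSeq gene Rn4.5s, which encodes the short 4.5S RNA. In the Cntnap2 peak, capitals mark stretches found identically in distal peaks on other chromosomes. The chromosome 12 peak is in capitals throughout, because every 31-base word of it also stands in the mitochondrial genome. The chromosome 9 peak comes from a repeat-masked cluster near the start of that chromosome and has no capitals, as it holds neither hexamer.
Array cluster named for Ezh2, chr6:47667901-47668000: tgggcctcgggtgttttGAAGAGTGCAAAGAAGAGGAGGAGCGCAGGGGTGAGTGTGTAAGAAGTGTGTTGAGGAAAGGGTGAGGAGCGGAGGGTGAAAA
Array cluster named for Mir704, chr6:47763201-47763400: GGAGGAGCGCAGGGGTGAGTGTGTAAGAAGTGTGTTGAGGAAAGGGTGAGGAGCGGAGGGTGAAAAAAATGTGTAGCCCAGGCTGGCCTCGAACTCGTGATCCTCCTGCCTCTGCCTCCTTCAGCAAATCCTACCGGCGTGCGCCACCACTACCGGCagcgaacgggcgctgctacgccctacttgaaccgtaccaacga
Upstream of Cntnap2, chr6:44792901-44793200: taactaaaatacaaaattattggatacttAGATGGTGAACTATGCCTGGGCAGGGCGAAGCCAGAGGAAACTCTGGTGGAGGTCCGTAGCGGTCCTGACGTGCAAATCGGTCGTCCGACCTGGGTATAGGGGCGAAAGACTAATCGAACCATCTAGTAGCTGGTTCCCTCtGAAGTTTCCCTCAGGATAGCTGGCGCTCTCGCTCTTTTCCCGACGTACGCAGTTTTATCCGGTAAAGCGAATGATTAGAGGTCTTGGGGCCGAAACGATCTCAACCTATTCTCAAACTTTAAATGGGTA
Named for 1700019M22Rik, chr12:97061501-97061600: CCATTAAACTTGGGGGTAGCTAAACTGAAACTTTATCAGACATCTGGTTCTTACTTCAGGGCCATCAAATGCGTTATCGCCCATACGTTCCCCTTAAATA
Named for Mir101c, chr9:3002601-3002700: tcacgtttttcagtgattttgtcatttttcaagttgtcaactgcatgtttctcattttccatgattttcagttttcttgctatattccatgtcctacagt

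Most distal peaks lay on sequence with more than 1 copy, unlike peaks of genes. Each peak was split into overlapping words of 31 bases. Each word was counted on both strands of the GRCm38 chromosomes, the unlocalized and unplaced scaffolds and the mitochondrial genome. A peak was called single-copy when at least 50% of its words were found once. By this measure 1103 of 3142 distal peaks were single-copy (35.1%, 33.5 to 36.8%). The share was 90.1% (89.4 to 90.8%) in 3' UTR peaks, 94.8% in 5' UTR peaks, 92.9% in promoter peaks, 87.5% (87.0 to 88.1%) in intron peaks, 84.0% in exon peaks and 71.8% (56.2 to 83.5%) in the 39 downstream peaks. Of the 100-base bins of the genome that lie outside GENCODE genes, 75.2% were single-copy (74.9 to 75.4%, from 142480 bins, 1 in 100 taken at even spacing). The distal share thus lay below both the other classes and intergenic sequence at large.

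**Figure D1:**
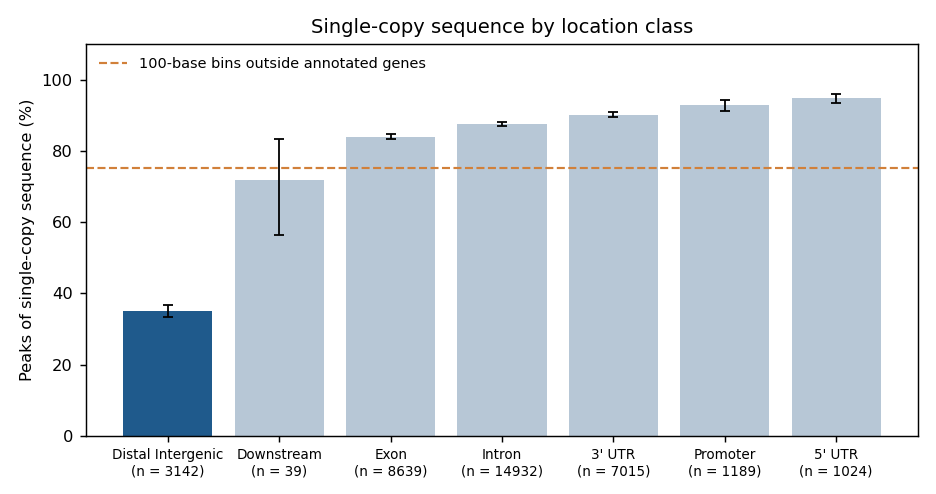
Share of peaks of single-copy sequence (percent, vertical axis) in each location class, with 95% Wilson intervals as error bars and the number of peaks under each bar. The dashed line is the share among 100-base bins outside annotated genes (75.2%), and the distal bar, at 35.1%, is the only one far below it.

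Each band of more than 1 copy held a larger share of distal peaks than of other peaks, with the widest gap at 10 to 99 copies. A median of 10 to 99 copies per word was found for 1355 distal peaks (43.1%, 41.4 to 44.9%), against 3.78% of all other peaks. A further 510 distal peaks had 2 to 9 copies (16.2%, against 7.59% of other peaks), and 176 had 100 or more (5.60%, 4.85 to 6.46%, against 1.09%). Of the intergenic bins, 11.9% had 100 or more. Single-bin distal peaks were repeat-masked over 47.1% of their bases, close to the 43.1% of all intergenic bins. Of the distal peaks with 10 to 99 copies, 480 (35.4%) were masked over less than 50% of their length.

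Distal peaks were about as strong as exon and 5' UTR peaks, and within the class peaks with several copies were stronger than single-copy ones. In all, 673 distal peaks reached a p-value of at most 1e-05 (21.4%, 20.02 to 22.9%), against 14.4% of the whole list. The share was 23.2% (20.9 to 25.7%) in promoter, 20.1% in exon, 19.6% in 5' UTR, 14.1% in 3' UTR and 8.69% in intron peaks. Split by copies, the share was 11.4% (9.68 to 13.4%) in single-copy distal peaks and 26.8% (24.9 to 28.8%) in the other 2039. It was highest at 10 to 99 copies (29.96%, 27.6 to 32.5%), and at 100 or more copies it was 10.2% (6.57 to 15.6%). The smallest p-value in the list (5.24e-15) was that of 82 distal peaks, of which 12 were single-copy. Of the 82 at that p-value, 67 were in clusters that shared sequence with others (families, below), against 59.8% of all distal peaks. These p-values are the authors' own and were used only to rank peaks.

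**Figure D2:**
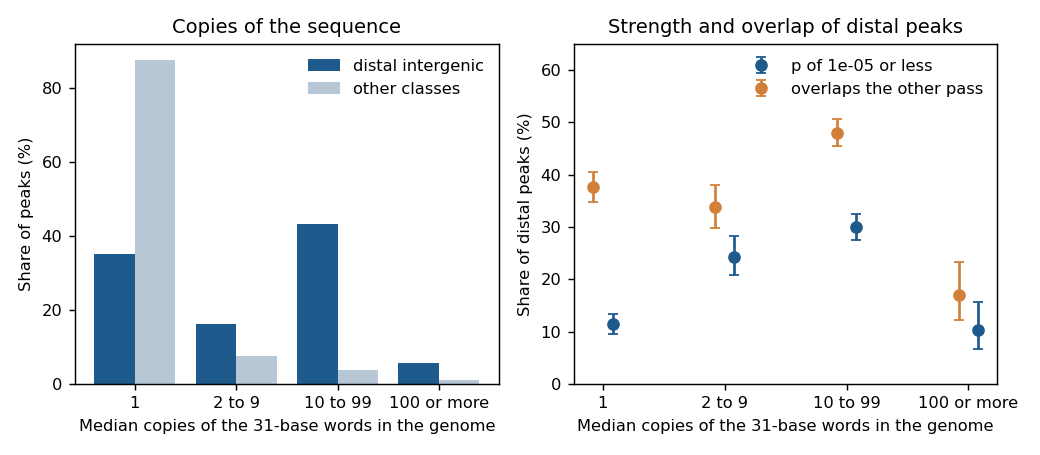
Left, share of distal intergenic peaks and of peaks of all other classes (percent) by the median number of copies of their 31-base words. Right, share of distal peaks in each copy band with a p-value of 1e-05 or less and share that overlapped a peak of the other pass, with 95% Wilson intervals, both highest at 10 to 99 copies (29.96% and 48.0%).

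A distal peak overlapped a peak of the other pass by at least 1 base in 1267 cases (40.3%, 38.6 to 42.1%). Exon peaks did so at 40.3% and promoter peaks at 43.7%, 3' UTR peaks at 36.5% and intron peaks at 23.9% (23.2 to 24.6%). The same start and end in both passes was found for 194 pairs of distal peaks, and 27 of these also had the same p-value. In the other pairs the first pass was the stronger 81 times and the second 86 times. Among the 82 strongest peaks, 79 overlapped a peak of the other pass.

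The distal peaks were grouped into 643 clusters by joining gaps of at most 10 kb. Clusters of 1 peak numbered 283 (44.0%), but the 78 clusters of 10 or more peaks held 1884 peaks (59.96%), and the 10 largest held 809 (25.7%). Chromosome 19 had the most distal peaks for its length outside genes (7.53 per Mb), followed by chromosome 11 (5.46), chromosome 10 (5.02) and chromosome 6 (4.63). The fewest were on chromosome 3 (0.659), chromosome 16 (0.66) and Y (0.683). The order differed when set against peaks of every class. Distal peaks were 4.48% of the 4356 peaks on chromosome 19 and 39.9% of the 138 on Y, against 8.73% of the whole list. Single clusters made up much of the distal counts on some chromosomes. On chromosome 10 the largest cluster held 187 of 312 peaks (59.9%), and on chromosome 11 it held 137 of 304 (45.1%). The single-copy share also differed, from 86.2% of 195 peaks on chromosome 19 to 2.56% of 117 peaks on X and 1.69% of 59 peaks on chromosome 14.

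**Figure D3:**
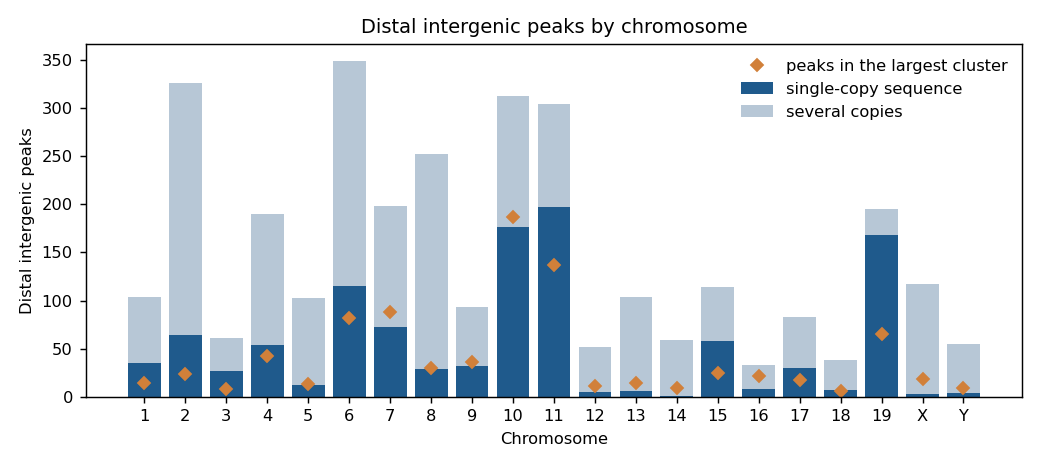
Number of distal intergenic peaks on each chromosome (vertical axis), divided into single-copy sequence (dark) and sequence with several copies (light). Diamonds give the number of peaks in the largest cluster of each chromosome, which reached 187 on chromosome 10.

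Single-copy distal peaks were concentrated at a few loci. Clustered alone they formed 192 clusters, and the 10 largest held 616 of the 1103 peaks (55.8%). The largest stood on chromosome 10, where 187 peaks, 152 of them single-copy, covered 60.1% of chr10:21724301-21785700. All were named for the lincRNA gene Gm5420, whose GENCODE model ends 16.9 kb before the first of them on the same chromosome, and the cluster held 1 short lincRNA model, Gm29323. The next coding gene on its far side was Sgk1, a kinase gene induced by glucocorticoids, 96.5 kb away. Here 126 of the 187 peaks (67.4%, 60.4 to 73.7%) overlapped a peak of the other pass. The widest single-copy peaks of the class were in this cluster, up to 2600 bases.

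On chromosome 11, 137 peaks covered 67.7% of chr11:20956001-20986000, a stretch without a GENCODE gene. They were named for Peli1 (111), which encodes a ubiquitin ligase of innate immune signalling, and Lgalsl (26), a galectin-like gene, although the genes lay 105 kb and 125 kb away, and both start toward the cluster. RefSeq places the lncRNA Gm32293 there, and 45 of the peaks overlapped its model while 92 lay beyond its end, up to 19.6 kb away. Single-copy sequence made up 94.2% of the peaks, and 78 (56.9%) overlapped a peak of the other pass. No peak of another class lay between these peaks, which the class rule sets where it knows no gene. Other clusters did hold peaks of other classes, with 12 in the one beyond Gm5420. Of the clusters described below, the one at Mir101c held 42, Klk1b21 27, Pax2 13 and Mir29b-1 5.

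Next to Mir29a and Mir29b-1, microRNA genes of the miR-29 family, known for repressing collagen mRNAs, 82 peaks lay in chr6:31055701-31082500. All 82 were single-copy. The cluster ran past both hairpins and stopped 0.064 kb short of the end of Lncpint, a lincRNA gene on the minus strand like the microRNA genes. The peaks were weaker than those above, with 9 at 1e-05 or less and 25 (30.5%, 21.6 to 41.1%) shared with the other pass. No distal peak touched the hairpin of any of the 18 microRNA genes named for distal peaks. The class rule places a peak on a transcript model elsewhere, so this was set in advance. The names give only the nearest start. Peaks of other classes touched 3 of the 18 (Mir21a, Mir29a and Mir5114).

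Before Pax2, which encodes a transcription factor of kidney development, 65 single-copy peaks were spread over chr19:44722601-44755800. The last of them ended 0.244 kb from the GENCODE start of the gene. RefSeq starts Pax2 farther upstream, and 24 of the 65 peaks fell in that longer model. The stretch also holds the GENCODE lincRNA AC138457.1, with 29 of the peaks within 10 kb before its start and 27 within 10 kb after its end. RefSeq has the lncRNA Gm35610 there, at chr19:44740791-44742711. Around Spsb1, a substrate receptor of a ubiquitin ligase, and H6pd, which makes NADPH in the endoplasmic reticulum, 42 single-copy peaks lay in the gap between the genes and covered 30.6% of chr4:149963201-149979200. They began 0.274 kb after the end of H6pd and stopped 8.16 kb before the start of Spsb1. The strongest of them, printed above, was the one nearest to H6pd.

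Between the divergent genes Itga3, an integrin subunit, and Dlx3, a homeobox gene, 29 single-copy peaks were spread over 31.7 kb, and 6 of them (20.7%, 9.85 to 38.4%) overlapped the other pass. Around the nuclear lncRNA genes Malat1 and Neat1, 29 distal peaks lay in chr19:5786801-5824600, 25 named for Malat1 and 4 for Neat1. They stood on both sides of Malat1 and reached up to the end of Neat1, with a strongest p-value of 5.88e-08. Fosl1, an immediate early gene of the AP-1 family, was named for 18 distal peaks out of 20, at 2.75 to 7.35 kb from its start.

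**Figure D4:**
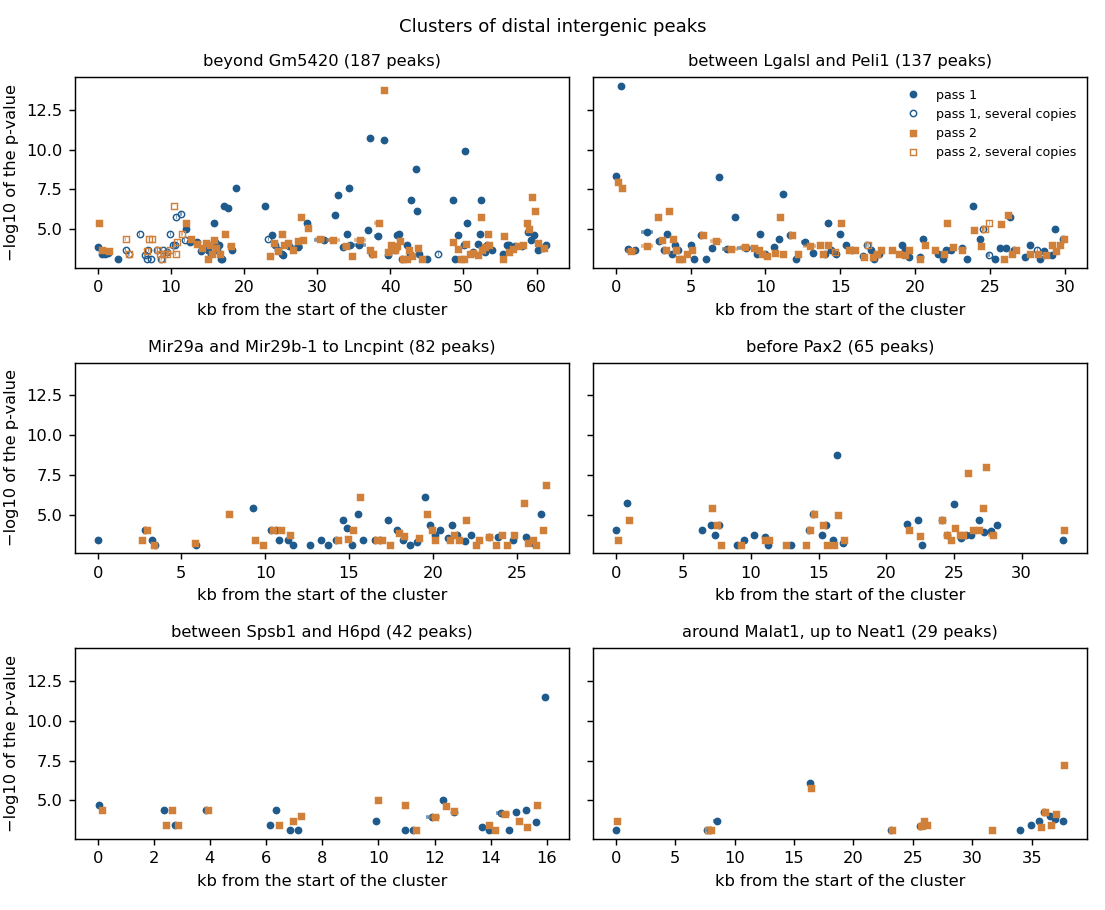
Distal intergenic peaks of 6 clusters, with the distance from the start of the cluster in kb on the horizontal axis and the −log10 of the p-value on the vertical axis. Circles are peaks of the first pass and squares of the second, open symbols are peaks with several copies, and short lines give widths. The cluster beyond Gm5420 (187 peaks) and the one between Lgalsl and Peli1 (137) are the densest, and the one around Malat1 (29) is sparse.

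Of the 1103 single-copy distal peaks, 293 (26.6%) lay within 10 kb after the end of a coding gene, at a median of 2.275 kb, and they belonged to 96 genes. Peaks of other classes were named for 71 of these genes. The matching shares for all coding genes and for intergenic bins were not computed, so these counts do not tie the peaks to the genes. After H6pd, 32 of the 293 peaks reached 9.875 kb, close to the limit of 10 kb, and their cluster, described above, ran farther. After Bcl2l1, which encodes the anti-apoptotic protein Bcl-xL, 18 peaks reached 7.17 kb. All 18 fell inside the RefSeq model of Bcl2l1, which ends farther downstream, although the list named them for Cox4i2. The desaturase gene Scd2 was followed by 16 peaks up to 4.04 kb from its end, none of them in its RefSeq model. After Ctnnd1, which encodes p120 catenin, there were 13, all in its RefSeq model. Herpud1, a gene of endoplasmic reticulum stress, was followed by 12 peaks, and the hypoxia factor gene Hif3a and Pacsin2 by 11 each. In all, 60 of the 293 peaks fell in the RefSeq model of the gene they followed. For 123 of the 293 the list named the gene itself.

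Over all 3142 distal peaks, 109 (3.47%, 2.88 to 4.17%) overlapped a GENCODE gene, 106 of them a lincRNA gene. A further 1261 (40.1%, 38.4 to 41.9%) lay within 10 kb after a gene end, 573 (18.2%) within 10 kb before a gene start, and 1199 (38.2%, 36.5 to 39.9%) farther away. A peak within 10 kb of both was counted after an end, even where a start was nearer, and this order raises the first share over the second. The same shares were not computed for intergenic bins. The lincRNA genes were mainly Gm26870 (41 peaks), Gm26837 (24) and C230088H06Rik (17), whose distal peaks were all of several copies. In single-copy peaks, 48.7% (45.7 to 51.6%) lay after a gene end and 30.01% farther away. In the others these shares were 35.5% (33.5 to 37.6%) and 42.6%. RefSeq placed 833 distal peaks (26.5%) in a gene, and 386 (12.3%) overlapped a RefSeq exon. Neither annotation had a gene at 2232 peaks (71.0%).

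The named start lay at a median of 27.4 kb, with quartiles of 11.2 and 78.6 kb, and the peak was upstream of it in 1724 cases (54.9%). More than 100 kb separated 637 peaks (20.3%) from the named start. The farthest was on Y, named for Gm20823 at 2071 kb, followed by peaks named for D030045P18Rik at 1617 kb and Gm20268 at 1472 kb. Of these, only the Gm20268 peaks had a median of 1 copy, and they carried the smallest p-value in both passes. A peak of another class stood within 10 kb of 58.6% (55.6 to 61.4%) of single-copy distal peaks and of 23.7% (21.9 to 25.6%) of the others, while another distal peak that did not overlap it stood within 10 kb of 87.5% of all distal peaks.

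Many clusters of distal peaks shared sequence with others and were grouped into families. Clusters were linked when they shared at least 20% of the words of the one with fewer words. This gave 43 families of 2 or more clusters, with 251 clusters and 1880 peaks (59.8%). These included the Gm5420 cluster, in a family of 231 peaks of which 65.8% were single-copy. The largest family held 554 peaks (17.6%) in 47 clusters on 19 chromosomes, among them loci named for Dhx40, Gpd2, Scp2 and Trpm1. Its clusters had a median length of 5.9 kb, and 34 of the 47 were 5 to 9 kb long. In 21 of these clusters, 55 peaks shared at least 50% of their words with RefSeq coding exons whose product is named MLV-related proviral Env polyprotein, that is, related to the murine leukemia virus envelope. All 55 distal peaks of that kind were in this family. They were 1.75% of distal peaks (1.35 to 2.27%), against 22 intron peaks (0.147%), 6 exon peaks (0.0695%) and no peak of the other classes.

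The widest distal peaks also belonged to this family. They were 4700 and 4600 bases wide in the first and second pass, from chr4:133096801-133101500 and chr4:133096901-133101500, and were named for Wasf2, an actin regulator, 29.0 kb away. Of its peaks, 34.5% had a p-value of 1e-05 or less and 31 had the smallest in the list. The second family, of 289 peaks in 70 clusters on 19 chromosomes, was masked over 95.9% of its bases. Its loci were named for Zfp53, Eid2, Nsd1 and others, 40.8% of its peaks passed 1e-05, and 205 (70.9%) overlapped the other pass. A family of 108 peaks in 14 clusters lay on chromosomes 2 and X beside zinc finger genes such as Zfp966 and Zfp967. Further families lay on chromosome 8, named for 6820431F20Rik and Gm21119, with 74 and 61 peaks, and at Mir101c and Rab10os on chromosomes 9 and 12, with 44 peaks. In the last, 68.2% passed 1e-05, 11 had the smallest p-value and 39 (88.6%) overlapped the other pass.

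Distal peaks named for Ezh2, the methyltransferase of Polycomb repressive complex 2, and for Mir704 lay on an array of the 4.5S RNA gene, a short RNA of rodents. The 62 peaks named for Ezh2 (chr6:47651601-47686300) began 56.3 kb from that gene, and the 59 named for Mir704 lay in chr6:47738001-47773100. No peak in either was single-copy, and the median number of copies was 15 and 16. RefSeq marks 1 gene, Rn4.5s (chr6:47654921-47655094, minus strand, 174 bases). Its words recurred at 13 places in the 2 clusters, at a median spacing of 4.34 kb, and every one of these places was touched by a distal peak. Each copy was only 173 to 177 bases long, in clusters of 34.7 and 35.1 kb. The share of peaks that position alone would put on a copy was not computed. Of the 121 peaks, 23 (19.01%) touched a copy. The rest lay between copies or to either side of them. The median −log10 of the p-value was 5.35 for peaks on a copy and 4.14 for the others. The strongest peak of the array, at the smallest p-value, was in the cluster named for Mir704 and lay 29.9 kb from its start, past the last copy, which began at 25.183 kb.

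**Figure D5:**
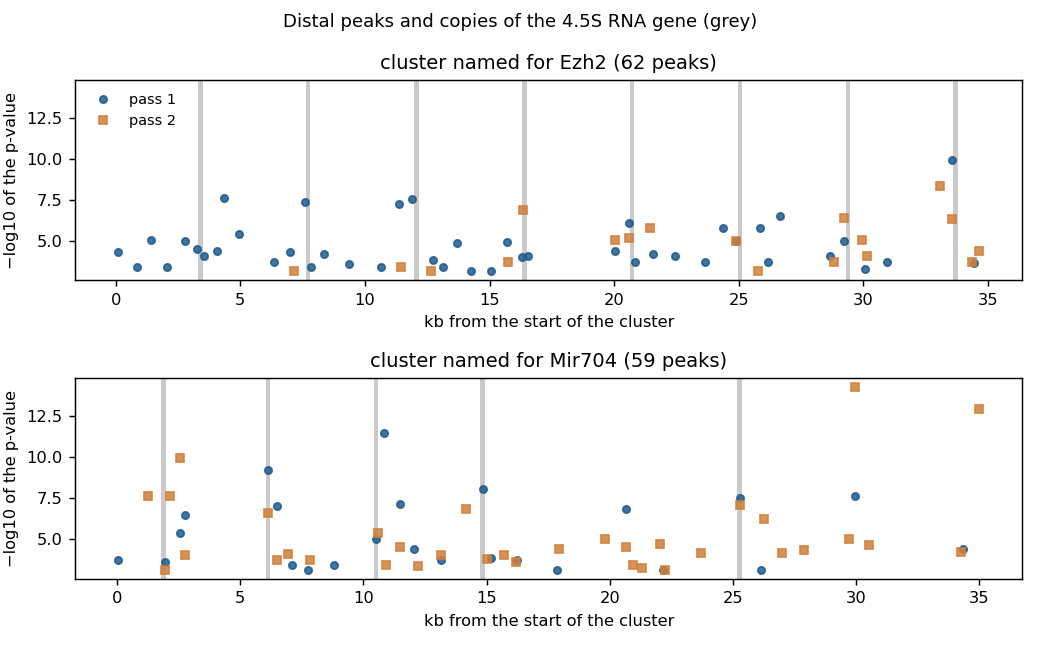
Distal intergenic peaks of the 2 clusters on chromosome 6, by distance from the start of the cluster (kb) and −log10 of the p-value, for the first (circles) and second (squares) pass. Grey bands mark the 13 copies of the 4.5S RNA gene, spaced at a median of 4.34 kb, and peaks lie on the copies, between them and to either side.

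Other distal peaks matched abundant RNAs. Both passes held a peak of 800 bases at chr6:3200701-3201500, named for Gm8579, at the smallest p-value, and 65.6% of its words stood in the ribosomal RNA sequence compared. That sequence was the stretch under the listed peaks named for Rn45s (chr17:39842901-39848800) and the RefSeq ribosomal RNA genes. Ribosomal RNA reads had been removed before mapping. At chr12:97061401-97061600, named for 1700019M22Rik, the peak of the first pass shared 61.4% and that of the second pass 100% of its words with the mitochondrial genome. The sequence printed from upstream of Cntnap2 belonged to a family of 11 peaks in 5 clusters on chromosomes 6, 8, 15 and 18, named for Cerk, Csmd3, Mir6356, Cntnap2 and Myom2. All 11 passed 1e-05, all overlapped the other pass and 7 had the smallest p-value. Those 7 shared no word with the annotated RNAs compared, but the 28S ribosomal RNA gene stands there only as a partial gene of 420 bases, so most of that RNA was not compared. In all, 314 distal peaks (9.99%) shared at least 50% of their words with a spliced coding transcript of GENCODE and 654 (20.8%) with a spliced long noncoding one. All but 1 of these were peaks with several copies.

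Further clusters illustrate how far a name can lie from a peak. Between the kallikrein genes Klk1b27 and Klk1b21, serine proteases of a tandem family, 88 peaks lay in chr7:44060801-44088800, 48 of them single-copy, among the pseudogenes Gm45197 and Klk1b14-ps and inside a long RefSeq model of Klk1b21. Downstream of Hrh1, a histamine receptor gene, 51 peaks were spread over 111.5 kb, of which 27 were named for the autophagy gene Atg7 and 24 for Hrh1, and 2 were single-copy. Atg7 started 37.996 kb beyond the cluster, and none of the 32 distal peaks named for Atg7 in the whole list was single-copy. All 44 peaks named for Gpm6a, a neuronal membrane protein gene on chromosome 8, were distal, and none of them overlapped the other pass.

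The gene lists differed in their share of distal names, and most held few members with a peak. A distal peak was named for 534 of the 5001 symbols in the list (10.7%), and for 296 of them all listed peaks were distal. Counts of list members with a peak of any class serve here only as denominators and were not compared with all annotated genes. None of 24 hepatocyte products, of which 23 were in the annotation, had a peak of any class. Of 15 glucocorticoid-induced genes, 12 had a peak and Sgk1 alone a distal one (2 of its 25). Of 12 immediate early genes, 8 had a peak and Fosl1 alone a distal one. None of the 12 matricellular and matrix genes had a distal peak, although 5 had peaks of other classes. Of 10 nuclear long noncoding RNAs, 7 had a peak and Malat1 and Neat1 a distal one. Distal peaks were named for 18 of 176 microRNA genes with a peak (10.2%) and for 108 of 325 predicted genes (33.2%), which took 752 distal peaks (23.9%). The 10 symbols with the most distal peaks, led by Gm5420 (188), Peli1 (111) and Mir29b-1 (73), held 764 of them (24.3%).

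The hexamers, which were chosen by the study on these peaks and so are not independent of them, were counted in peaks of a single 100-base bin, on either strand. GGCCAC was found in 167 of 2234 distal bins (7.48%, 6.46 to 8.64%), against 6.74% (6.45 to 7.06%) in all other classes and 2.92% of intergenic bins. GC content was 47.7% in distal peaks and 40.7% in intergenic bins, and its part in this difference was not tested. The share was 5.54% in the first pass and 9.43% (7.85 to 11.3%) in the second, and of the 42 such bins in the largest family 8 were in the first and 34 in the second pass. GCCATA was found in 3.13% of distal bins, 3.09% of other peaks and 3.10% of intergenic bins. The polyadenylation signal AATAAA stood in 7.79% of distal bins (6.75 to 8.97%), 9.97% of 3' UTR bins and 16.2% of intergenic bins. The 5' splice site words GTAAGT (2.95%) and GTGAGT (4.97%) were found about as often as in intergenic bins (3.40% and 5.57%).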

How the data were processed

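RIP-seq of the IP and Input libraries was processed upstream by the authors. By the methods and the labels, trimming was done with Trim Galore 0.6.1 and quality control with FastQC 0.11.9. Bowtie 1.2.3 served to take out ribosomal RNA, HISAT2 to align to mm10, Piranha to call peaks in bins of 100 bases, and clusterProfiler to annotate them. No source used here says how reads with several positions were placed or whether Input was used in the calling. The p-value, position, class and distance of each peak were deposited by the authors, as 1 pooled list without read counts, so the depth is unknown. A deposited gene table lists peak numbers, and 5001 of its 5002 symbols had the number found in the list.

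Annotation was GENCODE and RefSeq on GRCm38, the build called mm10, and sequence came from the RefSeq assembly. The listed distance was within 1 base of the recomputed one for 3076 of the 3083 distal peaks whose named transcript was in the annotation. Copies were counted over words of 31 bases, and shares have 95% Wilson intervals. With 1 library per group no test was made. Named genes were the 15 with the most distal peaks, those of the 10 smallest p-values, 10 widest peaks, 10 largest clusters and 5 farthest peaks, and up to 4 members of each list. Itga3, Malat1 and Neat1 as loci, the coding genes followed by single-copy peaks, and the families and their loci were chosen after their values were seen. The members and lists were chosen with earlier results of these data known. Scripts (Python 3.11.15, numpy 2.4.6, pandas 2.3.3, scipy 1.17.1, numba 0.67.0, matplotlib 3.10.9) were tested on simulated data. Alternatives were a p-value limit, each pass alone, joined peaks, leaving out the 10 most-named genes, coding genes alone, and other windows, gaps and overlaps. RefSeq genes, words of 25 bases, a limit of 90% of words, family links at 50% and clusters of single-copy peaks were added after seeing the data.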

Additional observations from a re-analysis of the deposited data

How the results depend on the processing

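Of 114 values of 18 results under alternatives, 61 stayed close to the value reported and 53 moved. The cause was not tested, except where a narrower window, a stricter overlap or fewer peaks moves a value by construction. The list gives no depth, so weak peaks cannot be told from shallow coverage, and sequence with several copies cannot be assigned to 1 locus. No paired analysis was possible because each group had 1 library and the list names no sample. With peaks at a p-value of 1e-05 or less alone, the distal share was 13.0% of peaks, and 7.88% of distal peaks lay in a gene body, 29.4% after a gene end and 45.3% farther. In that set there were 226 clusters, 33.7% overlapped the other pass, 65.2% were of a single bin, 18.9% had a peak of another class near, 18.7% were single-copy, 52.7% of bases were masked and 12.1% held GGCCAC. In the first pass alone this word stood in 5.54% of bins, and it stood in 9.43% in the second, where 33.8% of peaks had another class near. With peaks within 100 bases joined, the distal share was 8.05%, the 10 largest clusters held 17.1%, 27.5% passed 1e-05, 52.8% were of a single bin, 32.4% had another class near, 28.6% were single-copy, 49.2% of bases were masked and 2.35% held GCCATA. Without the 10 most-named genes the distal share was 6.83%, 4.58% lay in a gene body, 43.8% after an end and 33.2% farther, the 10 largest clusters held 15.9%, 38.6% overlapped the other pass, 74.01% were of a single bin, 29.7% were single-copy and 51.6% of bases were masked. Against coding genes alone, 0.0637% lay in a gene body, 21.6% after an end, 11.1% before a start and 67.2% farther. A window of 5 kb gave 27.02% after an end, 11.9% before a start and 57.6% farther, and one of 50 kb gave 79.9%, 10.5% and 6.14%. An end was counted first, so a wider window takes peaks from the group before a start. RefSeq genes gave 26.5% in a gene body, 27.2% after an end, 13.8% before a start and 32.5% farther. Single-copy peaks alone formed 192 clusters, the 10 largest with 55.8%. Identical positions in both passes were found for 12.3% of distal peaks, and 75.6% lay at most 500 bases from a peak of the other pass. A peak of another class stood within 5 kb of 25.2% and within 50 kb of 54.9%. Asking for 90% of words found once left 29.4% single-copy, and links at 50% of words left 45.7% of peaks in families.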
